A study of Mus musculus with 6 samples.

Results

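The genes examined here encode enzymes and cofactors that make eicosanoids, together with the lipase that inactivates platelet-activating factor: Alox5, Alox5ap, Alox15, Ptgs1, Ptgs2, Ptges, Ltc4s, Lta4h, Hpgds and Pla2g7. They were taken by gene name from a table of 54532 genes, and all 10 were found and passed the expression filter that left 14522 genes for testing. The RNA came from Ly6G- CD11b+ cells of infarcted mouse hearts, 7 days after the left anterior descending artery was tied off for good. The study asked what integrin α5 does in the macrophages of the healing infarct. The comparison set 3 ITGA5 fl/fl libraries (floxed Itga5 alleles, no Cre) against 3 Myα5KO libraries (the same floxed alleles with Cre driven by the lysozyme M gene), all from C57BL/6 animals aged 12 weeks. The Cre driver acts in the whole myeloid lineage, neutrophils included, and the control animals carried no Cre. In these libraries, effects of Cre or of its insertion at Lyz2 cannot be told apart from loss of the integrin. The study compared mice with this Cre alone to Cre-negative littermates 7 days after infarction. It found no significant difference in heart function, ventricular volume or vessel density. Per the study's methods each library came from an individual animal, and p-values measure the spread between these libraries.

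Eicosanoids are short-lived lipid signals made from arachidonic acid. Cyclooxygenases (Ptgs1, Ptgs2) turn it into prostaglandin H2, which terminal synthases such as Ptges and Hpgds convert to individual prostaglandins. 5-Lipoxygenase (Alox5), presented with substrate by its activating protein (Alox5ap), makes leukotriene A4, from which Lta4h makes the neutrophil attractant leukotriene B4 and Ltc4s makes the cysteinyl leukotrienes. Mouse 12/15-lipoxygenase (Alox15) oxygenates arachidonic acid by another route, and macrophages in inflamed tissue are a major source of these lipids. The libraries measured transcripts only, so no lipid level can be read from them.

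Sequencing gave between 15424451 and 18419287 counts per library. The labels were checked first on Itga5 itself, which fell to 8.02% of the control level (log2 fold change -3.64, SE 0.08, edgeR adjusted p = 4.42e-12). Lyz2, the gene that carries the Cre insertion, fell to 53.0% (edgeR adjusted p = 4.27e-05). Macrophage transcripts were abundant: the 9 macrophage markers summed to between 11892 and 12868 CPM (counts scaled to a common library size) in every library.

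Ptges, Alox15 and Ltc4s were lower in Myα5KO macrophages, and no member was higher. Relative to the control mean, Ptges stood at 41.2%, Alox15 at 21.3% and Ltc4s at 68.0%. A gene is called lower or higher at an adjusted p of 0.05 or less in edgeR's quasi-likelihood test, with Benjamini-Hochberg adjustment over all 14522 tested genes. By that rule 3 of 10 members were lower, 0 were higher and 7 were not called. Over all tested genes 8.75% were called, 5.19% as lower and 3.56% as higher. Neither of the 2 members with a positive fold change had an unadjusted p under 0.05 in edgeR, and no alternative tool or setting called a member higher. The median log2 fold change of the members was -0.25, against 0.01 for all tested genes, and 8 of the 10 were negative. In 4 members (Ptges, Alox15, Ltc4s and Ptgs2) every Myα5KO library was below every control library, a pattern seen in 13.8% of all tested genes. The opposite pattern, seen in 14.9% of all tested genes, was found in 0 members. Because these are whole-population libraries, fewer cells of a type and less RNA per cell cannot be told apart.

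**Figure D1:**
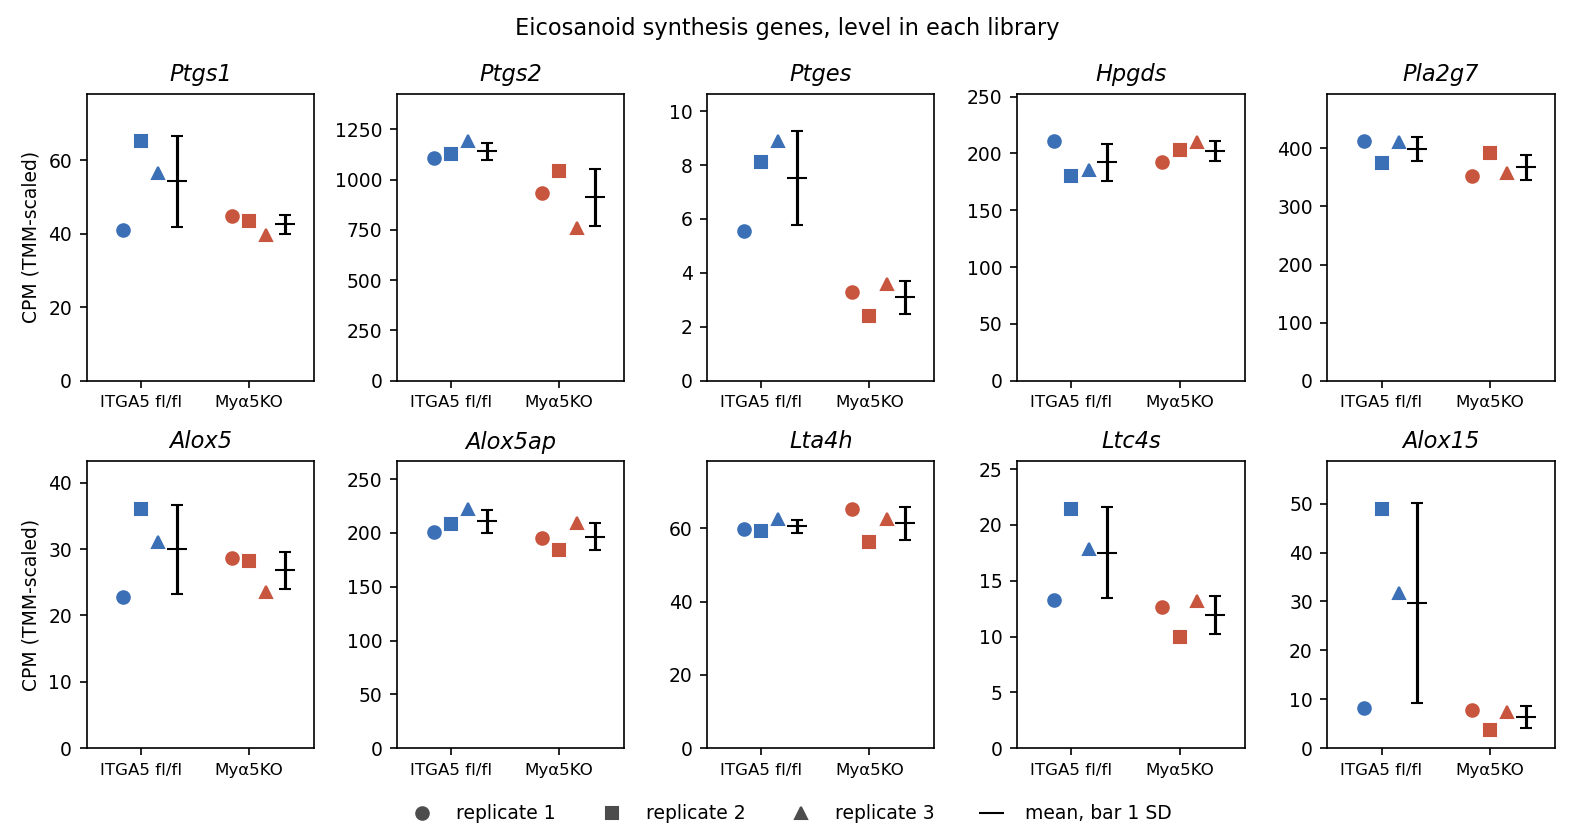
CPM (counts scaled to depth with TMM factors, y axis, starting at 0) of the 10 genes in each ITGA5 fl/fl (blue) and Myα5KO (red) library; symbols mark the replicate number, and the black bar gives the mean ± SD of 3 libraries. All 3 Myα5KO points lie below all 3 control points for Ptgs2, Ptges, Ltc4s and Alox15, whereas the first control library of Alox15, at 8.18 CPM, lies close to the Myα5KO values.

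Promoter sequence is shown for the genes on which the prostaglandin and leukotriene results turn, so that the letters can be read beside the values. RefSeq gave a promoter for 8 of the 10 members on build GRCm38.p6. Alox5ap and Alox15 had none in that table. The stretch shown ends at the RefSeq transcription start, and for Ltc4s it stops earlier, where an annotated exon begins. The Ptges stretch lies in an intron of an annotated Ptges transcript that starts further upstream, and the Ptgs2 and Ltc4s stretches lie outside their genes, that of Ltc4s within the antisense gene Gm26542. The motifs, chosen after the expression values were known, were searched on both strands of the 250 bases before each start: the TATA box (TATAAA), the AP-1 site (TGACTCA), the half-site of the cyclic AMP response element (TGACG), the E-box (CACGTG), a C/EBP site (TTGCNNAA), the GC box (GGGCGG), a STAT site (TTCNNNGAA), a GATA site (AGATAA) and the NF-kappaB consensus. Capitals mark the matches.
Ptges (chr2:30903298-30903547, minus strand): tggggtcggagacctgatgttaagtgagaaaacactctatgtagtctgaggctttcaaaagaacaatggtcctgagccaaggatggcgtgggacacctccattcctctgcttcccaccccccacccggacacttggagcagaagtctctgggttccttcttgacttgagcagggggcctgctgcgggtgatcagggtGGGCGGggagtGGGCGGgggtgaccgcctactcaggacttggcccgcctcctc
Ptgs2 (chr1:150099781-150100030, plus strand): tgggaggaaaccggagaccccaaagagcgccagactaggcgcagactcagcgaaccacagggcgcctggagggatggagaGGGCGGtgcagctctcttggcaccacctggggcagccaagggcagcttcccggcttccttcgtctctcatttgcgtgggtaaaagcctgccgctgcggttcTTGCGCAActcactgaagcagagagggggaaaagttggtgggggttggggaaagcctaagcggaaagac
Ltc4s (chr11:50238617-50238782, minus strand): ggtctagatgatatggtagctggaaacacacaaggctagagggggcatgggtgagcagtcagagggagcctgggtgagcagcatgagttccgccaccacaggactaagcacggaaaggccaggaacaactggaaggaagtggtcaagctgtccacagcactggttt
Ptges held 2 GC boxes, beginning 53 and 42 bases before the start, and Ptgs2 held 1 GC box and 1 C/EBP site, the latter beginning 69 bases before the start. Among all 32851 RefSeq promoters of this length 32.7% held a GC box and 9.56% the C/EBP site. None of these matches overlapped another. Ltc4s held no match to any of the motifs. A match describes letters only, and the absence of one says no more than that these letters are not in the window.

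The prostaglandin branch was led by Ptges, the inducible microsomal synthase that makes prostaglandin E2 (ENSMUSG00000050737, chr2:30889471-30929863, minus strand). It had 83, 138 and 156 counts in the control libraries and 62, 45 and 68 in the Myα5KO libraries. Scaled to depth, the control values were 5.56, 8.11 and 8.88 CPM and the Myα5KO values 3.30, 2.41 and 3.58 CPM. The groups did not overlap, and the lowest control library exceeded the highest Myα5KO library by a clear margin. The mean fell from 7.52 ± 1.73 to 3.09 ± 0.611 CPM (SD, n = 3 each; log2 fold change -1.28, SE 0.20, 95% interval -1.72 to -0.84, edgeR adjusted p = 0.00221). Ptges was called under all 15 alternative settings (adjusted p from 1.36e-05 to 0.0452), with log2 fold changes between -1.45 and -1.14 when single libraries were left out. The limma fits on FPKM (adjusted p = 0.0431 and 0.0452) kept only genes that reached an FPKM of 1 in 3 libraries. Ptges passed that filter through its controls alone, at 1.41 to 2.25 FPKM against 0.610 to 0.894 in Myα5KO libraries. The calls in these fits therefore add no support.

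Ptgs2, the inducible cyclooxygenase that supplies Ptges with substrate (ENSMUSG00000032487, chr1:150100031-150108227, plus strand), was at 248 FPKM (counts per gene length and depth) in controls, where Ptges was at 1.90 FPKM. Control libraries had 1109, 1126 and 1191 CPM, and Myα5KO libraries 933, 1043 and 762 CPM. The groups did not overlap, although the second Myα5KO library came near the controls. Means were 1142 ± 43.3 and 913 ± 141 CPM (SD, n = 3 each), and the difference missed the threshold (log2 fold change -0.32, SE 0.10, 95% interval -0.53 to -0.11, edgeR adjusted p = 0.0583). The call depended on the tool and on single libraries, with adjusted p over the alternatives from 0.012 to 0.192. DESeq2 gave an adjusted p of 0.012 and limma-voom 0.047, a filter of 10 counts in every library gave 0.0468 in edgeR, and leaving out the second Myα5KO library gave -0.43 with an edgeR adjusted p of 0.0214.

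Ptgs1, the constitutive cyclooxygenase (ENSMUSG00000047250, chr2:36230426-36252272, plus strand), had 40.9, 65.1 and 56.6 CPM in the controls and 44.8, 43.3 and 39.6 CPM in Myα5KO cells. Its first control library lay within the Myα5KO range and the other two above it. It did not pass the test (log2 fold change -0.35, SE 0.13, 95% interval -0.62 to -0.08, edgeR adjusted p = 0.109). Without the first control library the value was -0.52 and the edgeR adjusted p 0.00394, so a single library decided this call.

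Hpgds, the haematopoietic prostaglandin D2 synthase (ENSMUSG00000029919, chr6:65117293-65144908, minus strand), had 210.5, 180.2 and 185 CPM in controls and 192, 203 and 210.2 CPM in Myα5KO libraries. The ranges overlapped almost fully, with a log2 fold change of 0.07 (SE 0.07, 95% interval -0.08 to 0.23, edgeR adjusted p = 0.599). Hpgds overlaps the pseudogene Gm17147 on the other strand, which had 84 to 135 counts per library. Pla2g7, the secreted platelet-activating factor acetylhydrolase (ENSMUSG00000023913, chr17:43568098-43612201, plus strand), had 412, 375 and 411 CPM in controls and 353, 392 and 357 CPM in Myα5KO libraries. Its ranges overlapped as well, and the log2 fold change was -0.12 (SE 0.07, 95% interval -0.27 to 0.03, edgeR adjusted p = 0.339). The antisense gene 1700071M16Rik, which overlaps Pla2g7, had 203 to 461 counts per library. The intervals of both genes left no room for a change as large as that of Ptges.

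Summed markers of fibroblasts and of cardiomyocytes, like Ptges and Ptgs2, stood lower in every Myα5KO library than in every control library. The macrophage sum did so too, at 12628 to 12868 CPM in controls and 11892 to 12561 CPM in Myα5KO libraries. The sum for body cavity macrophages, given below, was separated in the same way. The 7 fibroblast markers summed to 1897, 1618 and 1698 CPM in controls and 1578, 1425 and 1209 CPM in Myα5KO libraries. Only Postn of the 7 was called, as lower, and no marker of the list was at 0. The 6 cardiomyocyte markers summed to between 18.8 and 21.3 CPM in controls and between 12.3 and 16.1 CPM in Myα5KO libraries, with Tnnt2 and Actc1 called lower and none at 0. For each of these sums the exact two-sided permutation p was 0.1, the smallest that 3 against 3 libraries can give. After adjustment over 16 marker lists it was 0.2. The part of these cells in the Ptges and Ptgs2 results was not tested.

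Among the 4 leukotriene members (Alox5, Alox5ap, Lta4h and Ltc4s), Ltc4s alone was called. Ltc4s, leukotriene C4 synthase (ENSMUSG00000020377, chr11:50236461-50238616, minus strand), had 13.3, 21.4 and 17.9 CPM in controls and 12.6, 9.95 and 13.2 CPM in Myα5KO libraries. The groups were separated only narrowly, with the lowest control library next to the highest Myα5KO library. The mean fell from 17.5 ± 4.09 to 11.9 ± 1.73 CPM (SD, n = 3 each; log2 fold change -0.56, SE 0.16, 95% interval -0.90 to -0.22, edgeR adjusted p = 0.043). This call depended on the setting. It held under 6 of 15 alternatives, DESeq2 among them, and adjusted p over the alternatives reached from 0.00874 to 0.2. It was lost in edgeR without the second control library (-0.39, adjusted p = 0.2), the third control library (-0.55, adjusted p = 0.128), the first Myα5KO library (-0.61, adjusted p = 0.0511) or the second Myα5KO library (-0.45, adjusted p = 0.145). Ltc4s overlaps the antisense gene Gm26542, which had 19 to 36 counts per library against 186 to 365 for Ltc4s, and reads from both strands could not be separated.

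The upstream leukotriene genes were not called. Alox5 (ENSMUSG00000025701, chr6:116410077-116461178, minus strand) had 22.8, 36.1 and 31.1 CPM in controls and 28.7, 28.1 and 23.5 CPM in Myα5KO libraries. Its first control library was the lowest of all 6, and the groups overlapped (log2 fold change -0.17, SE 0.14, 95% interval -0.46 to 0.13, edgeR adjusted p = 0.508). Alox5ap (ENSMUSG00000060063, chr5:149264767-149288153, plus strand) had 201, 208 and 222 CPM in controls against 195, 184 and 209 CPM (log2 fold change -0.10, SE 0.07, 95% interval -0.25 to 0.05, edgeR adjusted p = 0.416), and its antisense neighbour Gm19719 had 43 to 82 counts per library. Lta4h, which makes leukotriene B4 (ENSMUSG00000015889, chr10:93453411-93484875, plus strand), had 59.8, 59.3 and 62.6 CPM against 65.3, 56.2 and 62.4 CPM. Its fold change was close to 0 on the log2 scale (0.02, SE 0.07, 95% interval -0.14 to 0.17, edgeR adjusted p = 0.911). Neutrophils are known to carry much of this branch, and 5 of 7 tested neutrophil markers were higher in Myα5KO libraries. The list of 9 summed to 53.5, 37.8 and 55.1 CPM in controls and 135, 72.4 and 194 CPM in Myα5KO libraries, with none at 0 in every library. Cells carrying Ly6G had been removed on a magnetic column, and Ly6g had 0 to 2 counts per library and Cxcr2 7 to 8. Retnlg, also on the list, had a log2 fold change of -0.65 and was not called (edgeR adjusted p = 0.311). The part of these cells in the Alox5, Alox5ap and Lta4h values was not tested.

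**Figure D2:**
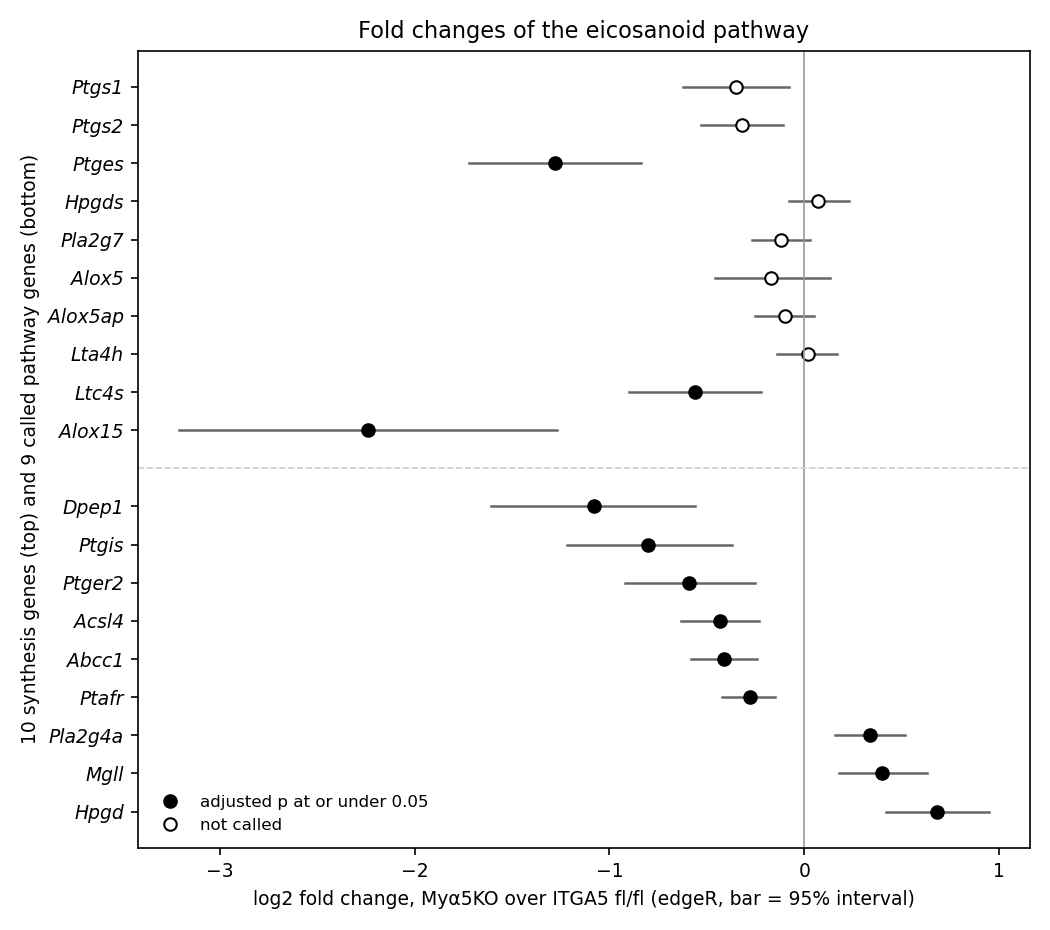
Log2 fold change of Myα5KO over ITGA5 fl/fl (x axis; edgeR, 3 libraries each) with its 95% interval for the 10 synthesis genes (top) and the 9 called genes of the wider pathway (bottom); filled points have an adjusted p of 0.05 or less. Alox15 at -2.24 and Ptges at -1.28 lie furthest to the left, and Hpgd at 0.68 furthest to the right.

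Alox15 (ENSMUSG00000018924, chr11:70344152-70352031, minus strand) showed the largest fold change of the members and also the largest spread. It is a lipoxygenase known from resident macrophages of the body cavities and from eosinophils. Counts were 122, 833 and 558 in controls and 146, 69 and 142 in Myα5KO libraries, which gave 8.18, 48.9 and 31.8 CPM against 7.77, 3.69 and 7.47 CPM. The first control library sat just above the Myα5KO range, and the other two were several times higher. The highest and lowest control libraries differed by 5.98-fold, compared with at most 1.62-fold for any other member. The mean fell from 29.6 ± 20.5 to 6.31 ± 2.27 CPM (SD, n = 3 each; log2 fold change -2.24, SE 0.45, 95% interval -3.21 to -1.27, edgeR adjusted p = 0.00832). The call held whichever library was left out, with values from -2.67 without the first control library to -1.68 without the second. Limma-voom (adjusted p = 0.0566) and limma on log2(FPKM + 1) (adjusted p = 0.135) did not call it, nor did limma on log2(FPKM + 0.1) (adjusted p = 0.132).

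The same division of the control libraries ran through several members. In that first control library Alox15, Ltc4s, Ptgs1 and Alox5 were each the lowest of the controls. Ptges, Ptgs2 and Alox5ap were also lowest there, at 5.56, 1109 and 201 CPM. Hpgds and Pla2g7, by contrast, were the highest of the controls there, at 210.5 and 412 CPM, and Lta4h lay between the other controls. Ptgs1, Alox5 and Alox5ap were there within or below the Myα5KO range. Without that library 4 members were called lower (Ptges, Alox15, Ltc4s and Ptgs1) in place of 3.

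Markers of body cavity macrophages followed this division. The list of 10 summed to 156, 358 and 312 CPM in controls and 137, 116 and 135 CPM in Myα5KO libraries (exact two-sided permutation p = 0.1, adjusted p = 0.2). Of the 10 genes 6 were lower, none was higher and none was at 0. Serpinb2, a plasminogen activator inhibitor, had 14.3, 83.3 and 68.8 CPM against 11.8, 7.38 and 11.4 CPM, nearly the same profile as Alox15. Gata6, the transcription factor that defines these cells, was low in all libraries, at 3.35, 4.29 and 3.53 CPM against 3.03, 3.37 and 3.37 CPM, with a log2 fold change of -0.19 that missed the threshold (edgeR adjusted p = 0.575). The part of such cells in the Alox15 and Ltc4s results was not tested. Markers of eosinophils, mast cells and platelets, other cells that express these enzymes, were also summed. The part of eosinophils and mast cells in the Alox15 and Ltc4s results was not tested either. Epx, the eosinophil peroxidase, had 0 to 3 counts per library and the 8 eosinophil markers summed to between 7.01 and 12.2 CPM, and the 4 tested markers had edgeR adjusted p of 0.297 or more. Cpa3, a mast cell protease, had 1 to 7 counts, and the 7 mast cell markers, mostly Kit and Hdc, summed to between 26.9 and 30.0 CPM in all libraries. The 8 platelet markers, among which Gp1bb and Gp6 were at 0 everywhere, summed to 7.44, 15.4 and 15.3 CPM in controls and 10.1, 11.0 and 9.47 CPM in Myα5KO libraries. This sum too was lowest in the first control library, and its part in the Ptgs1 values was not tested.

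Genes with the most similar profile were sought for each called member among 10472 tested genes with a mean of at least 50 counts, by Pearson correlation of log2 CPM over the 6 libraries. These 6 points share genotype and library, so the coefficients are descriptions. Alox15 was closest to Saa3, an acute-phase serum amyloid (r = 0.992), Serpinb2 (r = 0.991) and Ltc4s (r = 0.990). Ltc4s was closest to Saa3 (r = 0.994), Alox15 and Acpp, an acid phosphatase (r = 0.983). Ptges was closest to the galactokinase gene Galk1 (r = 0.988), the retinoic acid receptor gene Rarg (r = 0.988) and the thioredoxin-like gene Txnl1 (r = 0.987). The fold changes of these neighbours were small (log2 -0.32, -0.23 and -0.33). With Alox15 and with Ltc4s, Ptges had r = 0.92. Saa3 itself had 67.6, 202 and 133 CPM in controls and 61.4, 33.6 and 55.6 CPM in Myα5KO libraries.

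**Figure D3:**
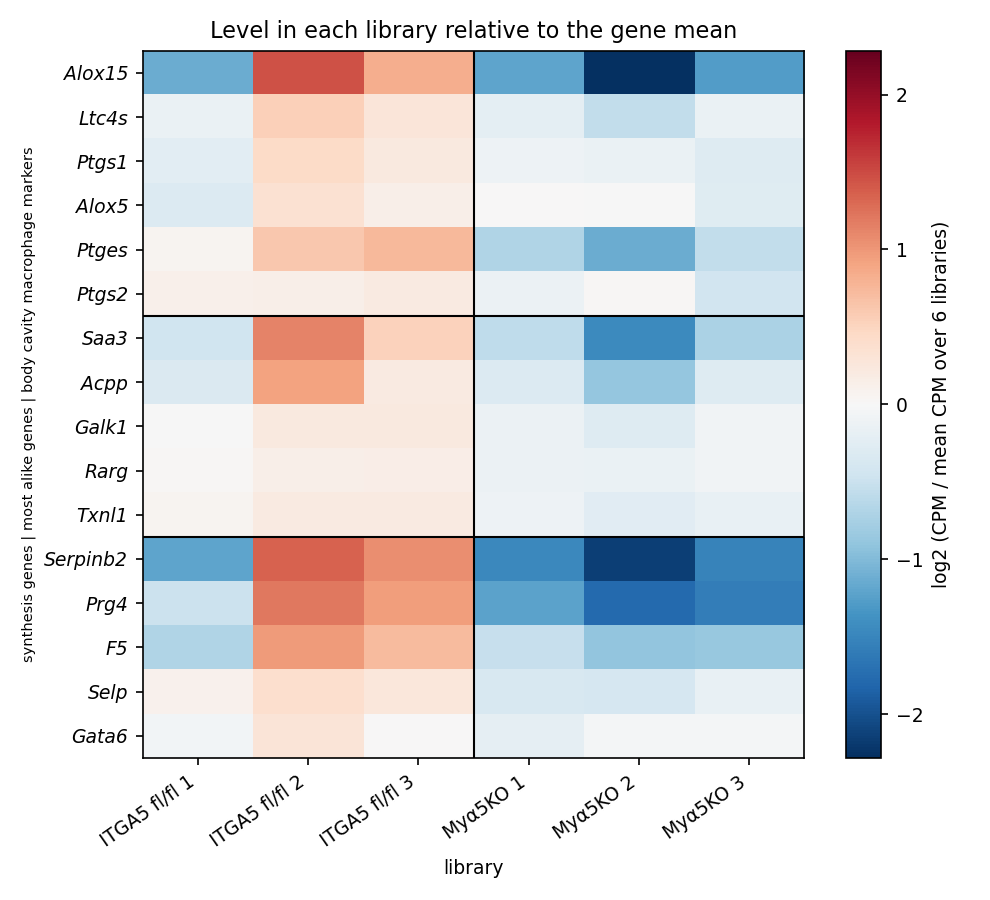
Each cell gives log2 of a gene's CPM over its mean across the 6 libraries (colour scale), for 6 synthesis genes (top), their most similar genes (middle) and 5 body cavity macrophage markers (bottom), with control libraries left of the line. The first control library is blue for Alox15 (-1.14) and Serpinb2 (-1.20) and near white for Ltc4s (-0.15) and Ptges (0.07). The other controls are higher in each of these genes, at 0.54 and 0.28 for Ltc4s and 0.61 and 0.74 for Ptges.

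Levels of different genes were compared on the deposited FPKM scale, which divides by gene length. In control macrophages Ptgs2 was the most abundant member at 248 ± 9.70 FPKM (SD, n = 3), followed by Alox5ap at 148 ± 7.61 and Pla2g7 at 137 ± 7.67. Hpgds followed at 29.7 ± 2.59 FPKM, Ltc4s at 17.2 ± 3.97, Ptgs1 at 13.9 ± 3.12, Alox15 at 12.0 ± 8.26, Lta4h at 9.88 ± 0.313, Alox5 at 7.27 ± 1.61 and Ptges at 1.90 ± 0.438. Ranges overlapped between Alox5ap and Pla2g7 and between each neighbouring pair from Ltc4s to Lta4h, so the order within those stretches was not resolved. The control range of Alox15, 3.32 to 19.8 FPKM, also took in the whole range of Alox5, so the place of Alox15 relative to Alox5 was not resolved either. By mean level Alox15 was rank 7 in control and rank 9 in Myα5KO macrophages, where it had 2.55 ± 0.914 FPKM, and Ptges remained last at 0.781 ± 0.150 FPKM. Lta4h and Alox5 were each 1 place higher by mean level there, and no other rank differed. The Myα5KO ranges of Alox5ap and Pla2g7, of Ltc4s and Ptgs1 and of Ptgs1 and Lta4h overlapped.

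**Figure D4:**
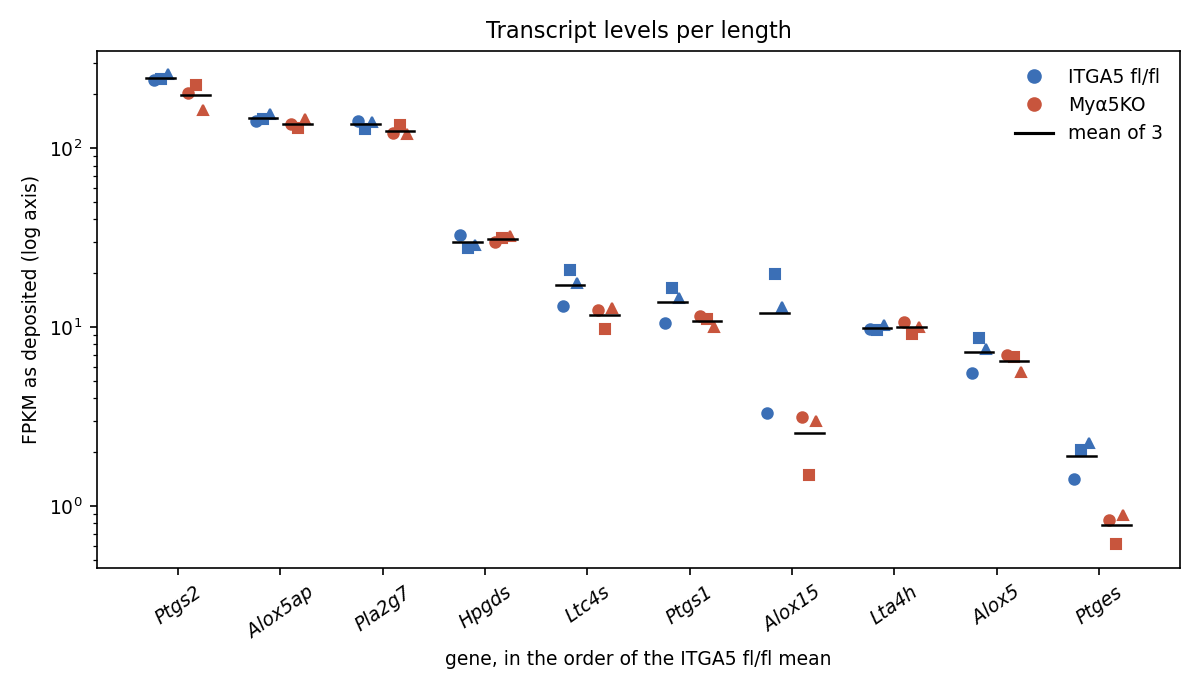
Deposited FPKM (log axis) of the 10 genes in ITGA5 fl/fl (blue) and Myα5KO (red) libraries, ordered by the control mean; circles, squares and triangles are replicates 1, 2 and 3, and the black line is the mean of 3. Ptgs2 lies at the top in both groups and Ptges at the bottom.

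Relations between partner enzymes can be read from the same scale. Ptgs2 exceeded Ptgs1 in every library, by 14.7-fold to 23.0-fold in controls and 16.3-fold to 20.4-fold in Myα5KO libraries, so the ratios overlapped. The ratio of Ptgs2 to Ptges was 171, 119 and 115 in controls and 243, 372 and 183 in Myα5KO libraries. Here the groups did not overlap, with the prostaglandin E2 synthase scarcer relative to its cyclooxygenase in each Myα5KO library. Alox15 exceeded Alox5 in the second and the third control libraries (2.27-fold and 1.71-fold) and was below it in the first (0.6004-fold) and in all Myα5KO libraries (0.219-fold to 0.532-fold). The groups did not overlap in this ratio either. How often ratios of other gene pairs are separated in this way was not tested.

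The rest of the pathway was examined with lists of 71 further genes for arachidonate release, other synthases, leukotriene conversion, breakdown, transport, receptors and platelet-activating factor. Of the 58 that passed the filter, 6 were lower (10.3%), 3 were higher (5.17%) and 49 were not called, against 5.19% and 3.56% of all tested genes. Their median log2 fold change was 0.01, equal to that of all tested genes, with 27 negative and 31 positive values. Called genes of the wider pathway thus went in both directions. The count of lower genes was 2 without the second and 3 without the third control library. The count of higher genes was 1 without the first or the third control library or the second or the third Myα5KO library.

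Among 13 tested genes of arachidonate release and reacylation, 2 were higher and 1 lower. Pla2g4a, the cytosolic phospholipase A2 that frees arachidonic acid, rose from 26.0 ± 0.981 to 33.0 ± 2.34 CPM (SD, n = 3 each; log2 fold change 0.34, SE 0.08, edgeR adjusted p = 0.0228). Mgll, the lipase that releases arachidonic acid from an endocannabinoid, rose from 16.1 ± 1.25 to 21.3 ± 2.29 CPM (0.40, SE 0.11, edgeR adjusted p = 0.0309). Acsl4, which returns arachidonic acid to its coenzyme A ester, fell from 136 ± 6.85 to 101 ± 14.6 CPM (-0.43, SE 0.09, edgeR adjusted p = 0.0111). For each of these genes the groups did not overlap. The most abundant genes of the list that were not called were Pla2g15, Daglb and Lpcat3, with log2 fold changes of 0.10, 0.05 and -0.03. With single libraries left out, Pla2g4a kept its call only without the first Myα5KO library and Mgll only without the second control or the first Myα5KO library, with log2 fold changes between 0.31 and 0.47. Acsl4 lost its call without the third control library (-0.39, edgeR adjusted p = 0.0579).

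Other terminal synthases gave 1 lower gene of 7 tested. Ptgis, prostacyclin synthase, had 8.24, 13.4 and 8.65 CPM in controls and 7.24, 5.24 and 5.00 CPM in Myα5KO libraries (log2 fold change -0.80, SE 0.20, edgeR adjusted p = 0.0251), and leaving out the second control library gave -0.54 and an edgeR adjusted p of 0.121. Without the second or the third Myα5KO library it was not called either (-0.73 and -0.70). The other prostaglandin E2 synthase genes were not called: Ptges3, which is constitutive, had a log2 fold change of -0.14 and Ptges2 of 0.12. Tbxas1, thromboxane synthase, was at -0.11. Of 2 tested lipoxygenases besides the members, Alox12 and Aloxe3, neither was called (edgeR adjusted p = 0.872 and 0.548, unadjusted 0.732 and 0.282), at control means of 0.896 and 0.609 CPM.

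Among genes that convert leukotrienes further, or add glutathione as Ltc4s does, 1 of 6 tested was lower. Dpep1, a dipeptidase that turns leukotriene D4 into leukotriene E4, fell from 2.71 ± 0.134 to 1.27 ± 0.204 CPM (SD, n = 3 each; log2 fold change -1.08, SE 0.24, edgeR adjusted p = 0.0146), and without the second control library its adjusted p was 0.0538. Dpep2, a related dipeptidase (of a pair of records with this name, the one with more counts), had a positive value of 0.37 and was not called (edgeR adjusted p = 0.156). Abcc1, the transporter that exports leukotriene C4, fell from 145 ± 10.8 to 109 ± 10.2 CPM (-0.41, SE 0.08, edgeR adjusted p = 0.00706).

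Breakdown and transport together gave 1 lower and 1 higher gene of 11 tested, Abcc1 and Hpgd. Hpgd, the dehydrogenase that inactivates prostaglandins E2 and F2α, had 29.3, 28.4 and 23.8 CPM in controls and 34.8, 45.9 and 50.1 CPM in Myα5KO libraries. All Myα5KO values exceeded all control values, and the rise was the largest of the wider pathway (log2 fold change 0.68, SE 0.12, edgeR adjusted p = 0.00433). Hpgd and Abcc1 kept their calls whichever library was left out. Cyp4f18, Ephx1 and Ptgr1, the most abundant genes of the list without a call, had log2 fold changes of -0.08, 0.20 and -0.01.

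Of 12 tested receptors 1 was lower. Ptger2, the EP2 receptor for prostaglandin E2, had 7.98, 11.6 and 9.56 CPM in controls and 7.13, 6.74 and 5.57 CPM in Myα5KO libraries (log2 fold change -0.59, SE 0.16, edgeR adjusted p = 0.0346). The call was kept without the first control or the first Myα5KO library and lost without any other, with values from -0.70 to -0.44. Ptger4, the EP4 receptor for the same ligand and the more abundant one, had a value of 0.13 and was not called (edgeR adjusted p = 0.282). Cysltr1, a receptor of the cysteinyl leukotrienes, was at 0.17 and Cmklr1 at -0.05. In the platelet-activating factor list 1 of 7 genes was lower, namely its receptor Ptafr, which had 450, 446 and 445 CPM in controls and 363, 382 and 359 CPM in Myα5KO libraries. Libraries of each group lay close together and far from the other group (log2 fold change -0.28, SE 0.06, edgeR adjusted p = 0.0149). Without the second or the third control library the edgeR adjusted p of Ptafr was 0.0649 and 0.0573.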

How the data were processed

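RNA-seq was performed on 6 libraries, 3 per group, assigned to groups by title. The authors filtered reads, aligned them to GRCm38 (TopHat2 2.0.9 per the submitters' processing notes) and counted reads per gene with HTSeq 0.6.1. The deposited count table holds whole numbers without normalization, and the deposited FPKM equal each count divided by gene length and a constant per library. Handling of strand and of multiply mapped reads is not given in the sources used here, and the library kit does not mark strand. Reads were amplified and carried no molecular identifiers, and the precision of a count covers counting error only.

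Counts were tested with edgeR 4.0.16 in R 4.3.3 (quasi-likelihood, TMM, filterByExpr with minimum count 10 and minimum total count 15, no covariate, two-sided) over 14522 genes. The SE is the fold change divided by the root of the F statistic, and CPM use TMM-scaled library sizes. The study names DESeq2, which was run as an alternative (1.42.0), as were limma 3.58.1 (voom, and with trend on log2(FPKM + 1) or log2(FPKM + 0.1), keeping genes that reached an FPKM of 1 in 3 or more libraries), size factors by median ratio or by library size, no filter, 10 counts in every library, the replicate number as a block and each library left out. Ranges of adjusted p over alternatives leave out the unfiltered fit, in which the prior degrees of freedom were infinite. On simulated counts edgeR recovered 99.3% of the 150 genes given changes of at least 2-fold and 84% of the 50 given smaller ones, with 10 false calls among 201. Each simulated gene took its spread from the trend over all genes, and only genes above a minimum mean count were changed. These rates hold for that setting and not for genes that vary more between libraries.

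The members, pathway lists and marker lists were chosen with earlier results of these data known. Genes named are the members, Itga5, Lyz2, called pathway genes, up to 3 of the most abundant uncalled genes per list by FPKM, the 3 genes most like each called member and markers of cells that express a member. Other genes named were chosen after their values were seen. Promoters came from RefSeq (GRCm38.p6).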

Additional observations from a re-analysis of the deposited data

How the results depend on the processing

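Ptges was called under all 15 alternatives, and the 3 called members kept their direction under each. In the limma fits on FPKM, Ptges and Dpep1 passed the expression filter only through their control libraries. With limma on log2(FPKM + 1) and on log2(FPKM + 0.1) the count of lower members was 1 and 1, that of lower genes among all tested 322 and 306 (754 in the main test), of higher genes among all tested 150 and 142 (517), of lower pathway genes 2 and 1 (6) and of higher pathway genes 0 and 0 (3). Without a count filter 5 members were lower and 798 genes higher, in a fit whose prior degrees of freedom were infinite. Library-size scaling gave 1212 higher genes and 5 higher pathway genes. It leaves out the TMM factors, which were 0.969 to 0.979 in controls and 1.020 to 1.034 in Myα5KO libraries. The median log2 fold change of all tested genes was 0.095 with library-size scaling and 0.015 with TMM. The cause of these differences was not tested.

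With single libraries left out, 2 to 4 members were lower and 0 higher in each, between 429 (without the third control library) and 671 of all tested genes were lower, between 187 (without the third control library) and 420 higher, 2 to 6 pathway genes were lower and 1 to 3 higher. Without the second control library 471 genes were lower and 252 higher, without the first 341 were higher, and without the second Myα5KO library 264. The value of Lta4h changed sign without the first Myα5KO library, from 0.02 to -0.03, uncalled in both; with single libraries left out it lay between -0.03 and 0.07.

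No pairing of the libraries by their shared replicate numbers was seen. Correlations of deviations between same-numbered libraries were 0.051, -0.058 and 0.043, and not every library correlated best with its own number. With 3 libraries per group this check has little power, so a shared batch could be missed. With the replicate block 2 members were lower (Ptges and Alox15) and 0 higher, 717 genes were lower and 464 higher, and 6 and 3 pathway genes were lower and higher.

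Counts of Ptges, the lowest of the members, were 45 to 156 per library, and 13 of the 71 pathway genes were too low to be tested.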

Other observations

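Markers of other cells, summed per library, were as follows. The 7 monocyte markers gave 317 to 408 CPM in controls and 484 to 494 CPM in Myα5KO libraries, with Ly6c2 and Ccr2 higher. The 5 B cell markers gave 68.0 to 107 CPM against 107 to 172 CPM, and the 7 T and NK cell markers 4.22 to 5.69 CPM against 7.12 to 8.57 CPM. The 7 dendritic cell markers gave 93.1 to 121 CPM against 113 to 125 CPM, the 5 endothelial markers 299.9 to 343 CPM against 326 to 361 CPM, the 5 mesothelial markers 8.81 to 11.9 CPM against 7.47 to 11.3 CPM, and the 6 markers of resident cardiac macrophages 501 to 701 CPM against 530.4 to 619 CPM. The 3 basophil markers reached at most 0.373 CPM. The smallest exact two-sided permutation p in this design is 0.1, and no sum had an adjusted p below 0.2.

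Among pathway genes too low for the test, Ptgds, the other prostaglandin D2 synthase gene, had 0 to 2 counts per library, Ptger3 had 1 to 5, and Alox12b had 0 in every library.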
